A study of Mus musculus with 8 samples.

Results

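The genes described here are 7 nuclear receptors (Rora, Vdr, Nr3c1, Rxra, Rara, Rarg and Ppard) together with the aryl hydrocarbon receptor Ahr and its partner Arnt. They were chosen by name, as 9 of the 15995 gene symbols with values in newborn mouse epidermis. Epidermis of Zfp750-/- pups (Zfp750 knockout, 4 libraries) was set against epidermis of wild-type pups (4 libraries), all of strain C57BL/6J, to ask what the loss of Zfp750 changes. Zfp750 encodes a zinc finger protein of differentiating keratinocytes. In both groups the epidermis had been lifted off the dermis after an overnight trypsin-EDTA step and frozen, and ribosomal RNA was depleted from total RNA before sequencing. The sources used here do not give the part of Zfp750 that was removed, the sex of the pups or their litters. The labels do not say that each library came from a different pup, so the p-values measure the spread between these libraries only.

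Nuclear receptors are transcription factors whose activity is set by small fat-soluble molecules such as steroids, retinoids, vitamin D and fatty acids. Rxra, the retinoid X receptor alpha, binds DNA as a pair with Vdr, Rara, Rarg or Ppard, whereas Rora binds mainly alone and Nr3c1, the glucocorticoid receptor, mainly with itself. Ahr is a sensor of planar aromatic compounds of a different protein family (bHLH-PAS) and enters the nucleus to pair with Arnt. In the epidermis these factors are known for their parts in keratinocyte differentiation, barrier formation and responses to light and chemicals.

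All 9 genes reached the level needed for a test, 1 FPKM in at least 4 of the 8 libraries. Of the 9, 3 passed the test for a difference between the genotypes. Rora was lower in the knockouts, at 63.3% of the wild-type mean, while Ppard and Arnt were higher, with ratios of the means of 1.58 and 1.56. The other 6 did not pass. Over all 11395 genes tested, 15.7% passed in either direction, 8.94% as lower and 6.72% as higher in the knockouts. A gene passed at a Benjamini-Hochberg adjusted p under 0.05 over all genes tested, from limma on log2(FPKM + 1), where FPKM is the number of fragments scaled to transcript length and to the mapped fragments of the library. In the same 3 genes the 4 knockout libraries lay wholly on one side of the 4 wild-type libraries. That held for 21.3% of all genes tested, 12.5% with the knockouts below and 8.78% with the knockouts above. With only 9 genes, these counts were not tested against those shares.

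The start regions of the 3 genes that passed are shown because they are the members whose RNA level differed between the genotypes. Each is 300 bases, from 250 before to 50 after the RefSeq start, in GRCm38.p6 and in the direction of transcription. Capitals mark GCGTG or its reverse complement CACGC, the core bound by the Ahr-Arnt pair.
Rora, chr9:68653536-68653835, plus strand: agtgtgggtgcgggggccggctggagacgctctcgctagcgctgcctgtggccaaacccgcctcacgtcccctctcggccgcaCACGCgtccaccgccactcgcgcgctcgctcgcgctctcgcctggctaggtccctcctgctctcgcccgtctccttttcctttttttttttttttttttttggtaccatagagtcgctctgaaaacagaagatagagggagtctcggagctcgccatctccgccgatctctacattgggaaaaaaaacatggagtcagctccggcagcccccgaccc
Ppard, chr17:28232504-28232803, plus strand: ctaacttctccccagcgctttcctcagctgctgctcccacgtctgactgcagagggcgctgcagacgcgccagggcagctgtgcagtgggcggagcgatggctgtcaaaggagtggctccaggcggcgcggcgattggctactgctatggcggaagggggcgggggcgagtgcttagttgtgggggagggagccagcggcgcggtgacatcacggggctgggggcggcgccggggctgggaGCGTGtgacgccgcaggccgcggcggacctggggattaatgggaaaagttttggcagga
Arnt, chr3:95434140-95434439, plus strand: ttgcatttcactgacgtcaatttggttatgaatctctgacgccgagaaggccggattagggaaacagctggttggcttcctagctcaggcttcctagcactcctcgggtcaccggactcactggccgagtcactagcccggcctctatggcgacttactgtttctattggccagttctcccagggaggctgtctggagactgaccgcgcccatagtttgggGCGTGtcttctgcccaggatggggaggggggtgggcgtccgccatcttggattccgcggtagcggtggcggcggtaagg
Counted from 1 at the 5′ end, the match starts at base 84 for Rora, 242 for Ppard and 222 for Arnt. On both strands, 32.4% of 32851 promoters of the same length hold GCGTG, so a match is common. The nuclear receptor half-site AGGTCA, which 16.3% of those promoters hold on either strand, is not in these 3 windows. Start regions of members that did not pass were searched too. GCGTG or CACGC is also in that of Vdr and in some of those of Rara and Rarg, but not of Rxra. AGGTCA is in some start regions of Rxra, Rara and Rarg, but not in that of Vdr. Neither motif sets the 3 genes apart from the other members searched. The table gives 1 start for each of the 3 genes, and which start was used in these cells was not measured.

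In wild-type epidermis the 9 genes spanned a wide range of levels. Rora was highest, at 145.6 ± 22.2 FPKM (SD, n = 4), above 96.2% of the genes tested. Rxra followed at 90.5 ± 7.01 FPKM and Rarg, retinoic acid receptor gamma, at 45.2 ± 7.22 FPKM. The libraries of these 3 did not overlap with each other or with those of the next gene. Nr3c1 (23.4 ± 3.14 FPKM), Ahr (20.7 ± 4.60) and Ppard (16.25 ± 2.43) came next, and their ranges ran into each other between neighbours. Arnt stood at 11.1 ± 1.30 FPKM, Rara, retinoic acid receptor alpha, at 8.68 ± 2.88, and Vdr, the vitamin D receptor, was lowest at 5.70 ± 0.403 FPKM. Arnt overlapped with Rara, and Rara with Vdr. Vdr lay above 34.5% of the genes tested. In the knockouts Rora, Rxra and Rarg kept the first 3 places. There the mean of Ppard, 25.6 ± 4.53 FPKM, stood above those of Nr3c1 and Ahr, whose libraries it overlapped. Arnt, with a lowest knockout library of 15.19 FPKM, was separate from Rara, whose highest was 14.85 FPKM.

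**Figure D1:**
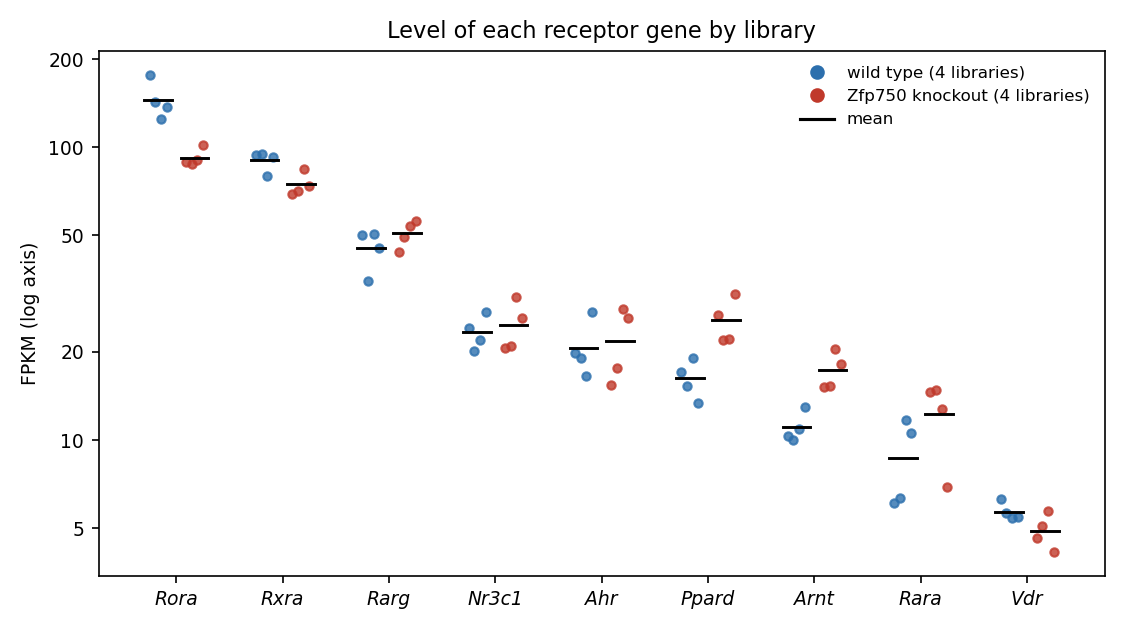
FPKM (log axis) of each of the 9 genes in the 4 wild-type (blue) and 4 Zfp750 knockout (red) libraries, with the mean as a bar. Genes run from the highest wild-type mean, Rora at 145.6 FPKM, to the lowest, Vdr at 5.70 FPKM, and the groups are separate for Rora, Ppard and Arnt.

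The libraries also differed from each other within the genotypes. Zfp750 stood at 1.53 to 2.68 FPKM in the knockouts and 81.6 to 119 FPKM in the wild types. Between 10637 and 11599 genes per library reached 1 FPKM, and the absolute depth is unknown. Xist, expressed from the inactive X chromosome of females, was 84.6 FPKM or more in knockouts 1 to 3 and wild type 3, and 1.84 FPKM or less in knockout 4 and wild types 1, 2 and 4. The sample titles carry code 11 (knockout 1, wild type 4), 14 (knockout 2, wild type 3) or 44 (the other 4), with no meaning stated. The summed FPKM of 9 basal keratinocyte markers, mostly Krt14 and Krt5, was 2371 to 6277 in the knockouts and 1183 to 3633 in the wild types. Of the 9, 5 were called higher in the knockouts, beside 6.72% of all genes tested. The 10 measured markers of the suprabasal and cornified layers summed to 15760 to 23120 and 17760 to 22120 FPKM. Of the 10, Ivl was called higher in the knockouts (542.6 against 194.9 FPKM, limma adjusted p = 0.000844). Cdsn was called lower (239.6 against 553.7 FPKM, limma adjusted p = 0.00247). The other 8 did not pass, where 15.7% of all genes tested passed. The 7 measured immune markers summed to 5.57 to 10.1 FPKM in the knockouts against 30.1 to 53.9, and the 7 fibroblast markers to 48.5 to 223 against 54.7 to 129. The 9 hair follicle markers summed to 311 to 866 against 161 to 438, mostly through Krt17. Of these 9, 8 were tested and 0 were called. The knockout means of Krt71 (1.199 against 4.675 FPKM) and Krt25 (1.563 against 4.615 FPKM) were lower, and those of Krt17, Msx2, Sox9, Shh and Lhx2 higher. Endothelial markers summed to at most 0.589 FPKM, and skeletal muscle markers to 36.94 FPKM in wild type 3 and at most 3.81 elsewhere. In bulk epidermis, fewer cells of a type and less RNA per cell cannot be told apart, and the part of these differences in the results below was not tested except where a value is given.

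Rora is the retinoic acid receptor-related orphan receptor alpha, known as a factor of keratinocyte differentiation and of the circadian clock. It lies on chromosome 9 from 68653786 to 69388246 on the plus strand (GRCm38, GENCODE vM21), a span of 734.5 kb with 6 annotated transcripts. The predicted gene Gm15511 lies within that span on the opposite strand. The level was 88.82, 87.85, 90.31 and 101.8 FPKM across knockouts 1 to 4, and 177.1, 142.5, 125.3 and 137.4 FPKM across wild types 1 to 4. The knockouts were close to each other and all lay below the lowest wild type, number 3, while wild type 1 stood highest. Rora fell by 0.64 ± 0.12 on the log2 scale (SE; 95% interval -0.92 to -0.36), with a limma adjusted p of 0.00764. Within title code 44 the difference was -0.72 (adjusted p = 0.0419), and within codes 11 and 14 it was -0.57 (adjusted p = 0.0697), each with 2 libraries against 2. With log2 Xist as a covariate it was -0.50 (adjusted p = 0.052). Because every knockout lay below every wild type, the order within each Xist class was fixed in advance and is no separate result.

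The genes around Rora moved less uniformly. Of 22 genes listed for its sterol ligands, its targets and the circadian clock, 17 were tested. Of these, 1 rose, 3 fell and 13 did not pass, where 15.7% of all genes tested passed. The median log2 difference was -0.068, beside 0.007 over all genes tested. Bhlhe40, a repressor within the clock, had 115.6, 82.6, 78.65 and 60.59 FPKM across knockouts 1 to 4 against 21.9, 23.44, 15.19 and 18.45 across wild types 1 to 4. The lowest knockout, number 4, was well above the highest wild type. Its log2 difference was 2.02 ± 0.20 (limma adjusted p = 0.000188). Npas2, a partner of Arntl (Bmal1) in the clock, is among the 3 falls, with 1.72 ± 0.213 FPKM in the wild types and 0.410 ± 0.135 FPKM in the knockouts. All 4 knockouts were under 1 FPKM, so that it was tested only through its wild-type level and had to differ. Clock, which takes the same place beside Arntl, fell from 10.2 ± 2.83 to 5.12 ± 0.943 FPKM, by 0.85 ± 0.20 (adjusted p = 0.0203). The call on Clock was lost without wild type 1 (adjusted p = 0.0634), within title code 44 (0.0537) and within codes 11 and 14 (0.122). Arntl itself had 8.81 FPKM against 12.5 FPKM (log2 -0.46 ± 0.15, adjusted p = 0.0706). Sult2b1, the sulfotransferase that makes cholesterol sulfate, had 141.4 ± 13.9 FPKM against 196.6 ± 27.4 FPKM (log2 -0.47 ± 0.13, adjusted p = 0.0381). That call was lost in 10 of 20 other settings, with adjusted p up to 0.24, among them without knockout 1, 2 or 3 or wild type 1 or 2 (0.0787 to 0.112).

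The pattern of Rora over the 8 libraries was most like that of Gnpda2, Hsd17b12 and Cd109. Likeness was the root mean square difference in centred log2(FPKM + 1) over the 8 libraries, and it was 0.0653, 0.0825 and 0.0921 for the 3. Hsd17b12, an enzyme of very long chain fatty acid elongation, had 69.25 to 72.53 FPKM in the knockouts and 91.77 to 122.5 FPKM in the wild types, and like Rora was highest in wild type 1 and lowest among wild types in number 3. Gnpda2, a glucosamine-6-phosphate deaminase, and Cd109, a cell surface protein of keratinocytes that binds transforming growth factor beta, had the same highest and lowest wild type. These genes were picked for likeness over the same libraries, so the shared order is no separate result.

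**Figure D2:**
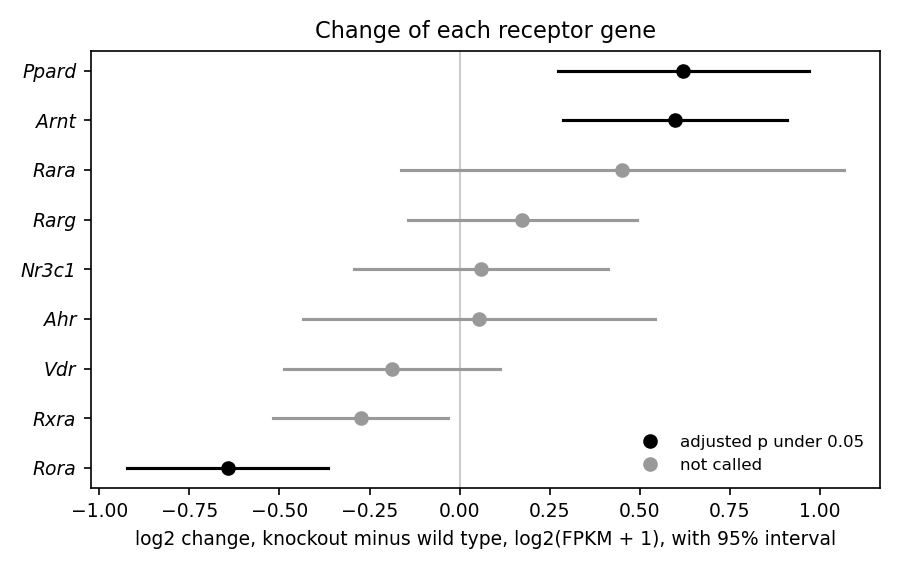
Log2 difference of each gene, knockout minus wild type, on the log2(FPKM + 1) scale, as a point with its 95% interval from limma (4 libraries against 4). Black marks an adjusted p under 0.05: Ppard and Arnt on the higher side and Rora on the lower side, while the interval of Rxra also leaves out 0 but its adjusted p is 0.124.

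Rxra, the shared partner of Vdr, Rara, Rarg and Ppard, lies on chromosome 2 from 27676440 to 27762957, plus strand. It had 69.01, 71.14, 84.49 and 73.89 FPKM across knockouts 1 to 4 and 94.36, 94.73, 80.03 and 92.72 FPKM across wild types 1 to 4. Wild type 3 fell among the knockouts, below knockout 3, and the other 3 wild types lay above all of them. The log2 difference was -0.28 ± 0.11 (95% interval -0.52 to -0.03, unadjusted p = 0.0303 and adjusted p = 0.124, limma). Rxra therefore did not pass over all genes tested. Knockout Rxra averaged 82.5% of the wild-type mean.

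Ppard, the fatty acid receptor PPAR delta, is the main form of its subfamily in epidermis and lies on chromosome 17 from 28232700 to 28301474, plus strand. Its level was 26.76, 21.94, 22.21 and 31.55 FPKM across knockouts 1 to 4 and 17.13, 15.34, 19.12 and 13.43 FPKM across wild types 1 to 4. Every knockout was above every wild type, with knockouts 1 and 4 highest and a gap of 19.12 to 21.94 FPKM between the groups. Ppard rose by 0.62 ± 0.16 on the log2 scale (95% interval 0.27 to 0.97, limma adjusted p = 0.0251). The size of the difference was steady over the 20 other processing settings, from 0.52 to 0.70, but the call was lost in 9 of them. Those were the loss of knockout 1 (adjusted p = 0.0623) or of wild type 1 (0.0559), 2 (0.0716) or 4 (0.0597), median-of-ratios scaling (0.0513), the TPM scale (0.0501), the Xist covariate (0.0914), title code 44 alone (0.0982) and codes 11 and 14 alone (0.121). Knockout 4 had the highest Ppard of the knockouts and their lowest basal marker sum, 2371 FPKM. Knockout 1 had the next highest Ppard and their highest basal marker sum, 6277 FPKM. A link between Ppard and these markers was not tested.

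The ratio of Ppard to Rxra FPKM was 0.263 to 0.427 in the knockouts and 0.145 to 0.239 in the wild types. These did not overlap. Nor did the ratio of Rarg to Rxra, at 0.636 to 0.759 against 0.369 to 0.630, although its groups were close. The ratio of Vdr to Rxra overlapped, at 0.0562 to 0.0715 against 0.0587 to 0.0677, as did that of Rara to Rxra, at 0.0939 to 0.211 against 0.0646 to 0.146. The ratios are descriptions with no test, and they compare genes only as far as FPKM accounts for transcript length.

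Genes that supply fatty acids to Ppard or are known as its targets passed about as often as genes in general. Of 24 listed, 19 were tested, 0 rose, 3 fell and 16 did not pass. The share that passed, 15.8%, was close to the 15.7% of all genes tested, 8.94% as lower and 6.72% as higher. The median log2 difference was -0.296, beside 0.007 over all genes tested. At an unadjusted limma p under 0.05, 3 of the 19 were higher and 8 lower. Higher calls numbered 1 with median-of-ratios scaling and without wild type 3 or 4, and 2 with array weights, with the title code as a block and without knockout 4. Lower calls numbered 7 with array weights and 6 with the Xist covariate and with the block. Cat, the catalase of peroxisomes, had 20.47, 22.42, 21.48 and 33.35 FPKM across knockouts 1 to 4 against 128.6, 120.8, 95.13 and 102.4 FPKM across wild types 1 to 4. All knockouts were far below all wild types, with knockout 4 the highest of the knockouts. Cat fell by 2.16 ± 0.17 on the log2 scale (adjusted p = 5.26e-05). Cpt1a, which brings long chain fatty acids into mitochondria, fell from 16.4 ± 6.64 to 4.33 ± 0.759 FPKM (adjusted p = 0.00307). Acaa2, a thiolase of mitochondrial beta-oxidation, fell from 75.8 ± 4.49 to 48.7 ± 3.60 FPKM (adjusted p = 0.00278; 0.0661 within title codes 11 and 14). Slc25a20, the carnitine carrier, had 5.38 FPKM against 8.43 FPKM and did not pass (adjusted p = 0.0612).

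Over the 8 libraries Ppard was most like Dlgap4, Trak1 and Myo1d, with root mean square differences of 0.116, 0.122 and 0.129. In all 3 the highest library was knockout 4, as for Ppard, which is no separate result since they were picked for likeness over the same libraries. Trak1, an adaptor of mitochondrial transport, had 21.86 to 28.64 FPKM in the knockouts and 13.78 to 16.72 FPKM in the wild types.

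The retinoic acid receptors did not pass. Rara lies on chromosome 11 from 98927818 to 98974942, plus strand, and had 14.54, 14.85, 12.73 and 6.936 FPKM across knockouts 1 to 4 and 6.091, 6.347, 11.68 and 10.6 FPKM across wild types 1 to 4. The libraries fell into a low set, knockout 4 with wild types 1 and 2, and a higher set of the other 5, so the genotypes overlapped. All of the low set carry title code 44, as does knockout 3 of the higher set. The log2 difference was 0.45 ± 0.27 (95% interval -0.16 to 1.07, limma adjusted p = 0.327), the widest interval of the 9 genes. With log2 Xist as a covariate it was 0.01. Within title code 44 it was 0.53 (adjusted p = 0.292) and within codes 11 and 14 it was 0.37 (adjusted p = 0.144). With the code as a block the adjusted p was 0.119. The 3 libraries of the low set had the lowest basal marker sums, 1183, 1796 and 2371 FPKM against at least 2797 FPKM in the other 5. Of the single basal markers, Krt5, Krt14 and Dst were lowest in these 3 libraries. Krt15, Itgb4, Itga6, Itga3, Col17a1 and Trp63 were not. In knockout 4, Itgb4 (79.22 FPKM) and Col17a1 (190.0 FPKM) were above every wild type. The melanocyte marker sums of the low set were also lowest, 14.57, 31.79 and 18.16 FPKM against at least 48.56 FPKM. The part of these markers or of the title code in the level of Rara was not tested.

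**Figure D3:**
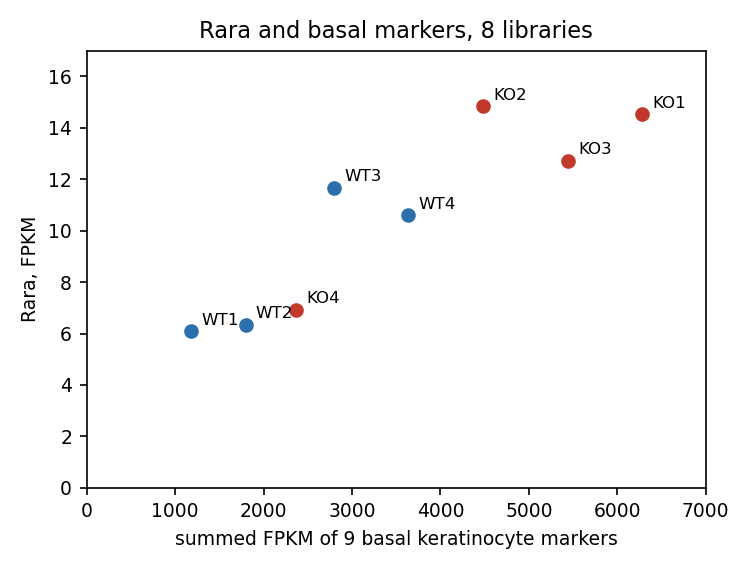
Rara FPKM against the summed FPKM of 9 basal keratinocyte markers, 1 point per library (red knockout, blue wild type). Krt14 and Krt5 make up most of the sum. Wild types 1 and 2 and knockout 4 sit together at 6.091 to 6.936 FPKM of Rara and at most 2371 FPKM of markers, and the other 5 libraries lie above them on both axes.

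Rarg, the more abundant retinoic acid receptor of keratinocytes, lies on chromosome 15 from 102234938 to 102257517, minus strand. It had 44.04, 49.26, 53.72 and 56.05 FPKM across knockouts 1 to 4 and 50.05, 34.93, 50.44 and 45.3 FPKM across wild types 1 to 4. The groups overlapped, with wild type 2 lowest. The log2 difference was 0.17 ± 0.14 (95% interval -0.14 to 0.49, limma adjusted p = 0.474), with 0.38 within title code 44 and -0.037 within codes 11 and 14. The ratio of Rarg to Rara ran from 3.03 to 8.08 in the knockouts and 4.28 to 8.22 in the wild types.

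Several genes of retinoid handling differed. Of 31 listed for retinoid metabolism or as retinoic acid targets, 14 were tested, of which 1 rose, 5 fell and 8 did not pass, where 15.7% of all genes tested passed. With the Xist covariate 1 rose and 2 fell. Lower calls numbered 8 with array weights and without knockout 4. The median log2 difference was -0.655, beside 0.007 over all genes tested. Rarres1, a gene first found as a response to a retinoid drug, had 11.04, 12.05, 9.795 and 11.58 FPKM across knockouts 1 to 4 against 94.89, 75.76, 87.19 and 55.98 FPKM across wild types 1 to 4. The knockouts were nearly level and far below the wild types, of which number 4 was lowest. Rarres1 fell by 2.69 ± 0.16 on the log2 scale (adjusted p = 1.29e-05). Rdh10, the enzyme that oxidizes retinol to retinal, fell from 11.25 ± 2.36 to 4.22 ± 1.02 FPKM (log2 -1.23 ± 0.20, adjusted p = 0.00303). Dhrs3, which reduces retinal back to retinol, fell from 32.3 ± 2.77 to 15.5 ± 5.02 FPKM (log2 -1.06 ± 0.21, adjusted p = 0.00842), and the reductase Dhrs7 fell from 46.2 ± 11.4 to 23.4 ± 4.66 FPKM (log2 -0.94, adjusted p = 0.0141). With the Xist covariate the adjusted p was 0.0556 for Dhrs3 and 0.0753 for Dhrs7. Sdr16c6, a retinol dehydrogenase relative, fell from 157.9 ± 36.4 to 78.8 ± 22.7 FPKM (adjusted p = 0.0174; 0.054 without wild type 1 and 0.0538 without wild type 2; 0.106 with the Xist covariate). Crabp2, which carries retinoic acid to its nuclear receptors, was the gene that rose, from 61.3 ± 10.9 to 116.7 ± 26.1 FPKM (log2 0.90 ± 0.18, adjusted p = 0.00935; 0.0527 within title codes 11 and 14).

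Vdr lies on chromosome 15 from 97854425 to 97910630, minus strand, and had 4.64, 5.089, 5.711 and 4.153 FPKM across knockouts 1 to 4 and 6.282, 5.653, 5.413 and 5.447 FPKM across wild types 1 to 4. Knockout 3 was above 3 of the wild types, and the other knockouts were below all of them. The log2 difference was -0.19 ± 0.13 (95% interval -0.49 to 0.11, limma adjusted p = 0.406). Of 15 genes of vitamin D synthesis and response, 6 were tested, with a median log2 difference of -0.15. Over all genes tested, 15.7% passed. Of the 6, 0 rose (1 at an unadjusted limma p under 0.05), 2 fell and 4 did not pass. Cd14, a receptor for bacterial lipids known as a Vdr target, is 1 of the 2, with 2.83 ± 0.252 FPKM in the wild types and 0.576 ± 0.276 FPKM in the knockouts. All 4 knockouts were under 1 FPKM, so that it too was tested only through its wild-type level and had to differ. It is also a marker of macrophages. Of the 5 immune markers tested, 4 were called lower in the knockouts, beside 8.94% of all genes tested. The part of these markers was not tested. Trpv6, a calcium channel, had 1.58 ± 0.653 FPKM against 3.35 ± 0.779 FPKM (log2 -0.77 ± 0.21, adjusted p = 0.0371). That call was lost without any library except knockouts 3 and 4 (adjusted p 0.0528 to 0.103), and within title code 44 the difference was -0.39 (0.324). Cyp24a1, the enzyme that degrades active vitamin D, was at most 0.124 FPKM in every library, and Cyp27b1, which activates it, at most 0.335 FPKM.

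Nr3c1, the glucocorticoid receptor, spanned 20.62 to 30.88 FPKM in the knockouts and 20.11 to 27.4 FPKM in the wild types. The separate values were 20.62, 21.01, 30.88 and 26.03 FPKM across knockouts 1 to 4 and 24.21, 20.11, 21.96 and 27.4 FPKM across wild types 1 to 4. The groups overlapped, with knockout 3 highest and wild type 2 lowest. The log2 difference was 0.06 ± 0.16, with a 95% interval of -0.29 to 0.41 (limma adjusted p = 0.841). It was 0.35 within title code 44 (adjusted p = 0.248) and -0.23 within codes 11 and 14 (adjusted p = 0.404).

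The genes of glucocorticoid synthesis and response went both ways. Of 24 listed, 18 were tested, 4 rose, 4 fell and 10 did not pass, where 15.7% of all genes tested passed. The median log2 difference was -0.003. Among the enzymes, Cyp17a1, which makes the precursor of sex steroids, had 1.894, 2.945, 4.113 and 6.219 FPKM across knockouts 1 to 4. It had 17.95, 14.65, 8.406 and 11.51 FPKM across wild types 1 to 4. Wild type 3 was the lowest of its group and still above knockout 4. Cyp17a1 fell by 1.59 ± 0.30 on the log2 scale (adjusted p = 0.00683). Cyp11a1, which starts steroid synthesis from cholesterol, is also among the 4 falls, but was tested only through its wild-type level, since all 4 knockouts were under 1 FPKM. Among genes known to respond to the receptor, Klf9, a transcription factor, rose from 7.38 ± 3.51 to 29.7 ± 5.23 FPKM (log2 1.97 ± 0.32, adjusted p = 0.00303). The metallothioneins Mt1 and Mt2, which bind zinc and copper, rose from 174.3 ± 22.3 to 487.3 ± 137.3 FPKM (log2 1.44 ± 0.21, adjusted p = 0.00179) and from 74.2 ± 17.1 to 391.3 ± 242.6 FPKM (log2 2.16 ± 0.43, adjusted p = 0.00911). Mt2 ranged from 133.5 FPKM in knockout 4 to 692.7 FPKM in knockout 1, and its adjusted p was 0.0581 with the Xist covariate. Fkbp5, a co-chaperone of the receptor, went the other way, from 60.3 ± 23.8 to 21.9 ± 2.03 FPKM (log2 -1.32 ± 0.29, adjusted p = 0.0147). The difference of Fkbp5 was -0.88 with the Xist covariate (adjusted p = 0.0782) and -0.77 within title codes 11 and 14 (adjusted p = 0.172). Errfi1, an inhibitor of the EGF receptor, had 87.1 ± 22.9 FPKM against 50.9 ± 8.92 FPKM (log2 0.74 ± 0.20, adjusted p = 0.0343), and Anxa1, an anti-inflammatory protein, 332.1 ± 56.5 FPKM against 538.3 ± 111.3 FPKM (log2 -0.69 ± 0.18, adjusted p = 0.0271). The call on Errfi1 was lost without knockout 1 or 2 or wild type 2, 3 or 4 (adjusted p 0.0667 to 0.0941), and that on Anxa1 without knockout 3 or wild type 1 or 2 (0.0681 to 0.0827). Within title code 44 Errfi1 differed by 0.23 (adjusted p = 0.321), and within codes 11 and 14 Anxa1 differed by -0.29 (adjusted p = 0.378). Both calls were also lost with median-of-ratios scaling and with the Xist covariate. The widely used response genes Tsc22d3 (39.3 against 48.4 FPKM, adjusted p = 0.677), Dusp1 (166.1 against 188.5 FPKM, 0.757) and Sgk1 (49.5 against 42.1 FPKM, 0.928) did not pass.

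Ahr lies on chromosome 12 from 35497974 to 35535038, minus strand. It had 15.41, 17.61, 28.12 and 26.21 FPKM across knockouts 1 to 4 and 19.83, 19.08, 16.61 and 27.29 FPKM across wild types 1 to 4. Knockouts 3 and 4 were high and knockouts 1 and 2 low, and the wild types lay between or among them. The log2 difference was 0.05 ± 0.22 (95% interval -0.44 to 0.54, limma adjusted p = 0.899). It was 0.46 within title code 44 (adjusted p = 0.0996) and -0.35 within codes 11 and 14 (adjusted p = 0.368).

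Arnt, the partner of Ahr and also of the hypoxia-inducible factors, lies on chromosome 3 from 95434388 to 95497240, plus strand. Its levels were 15.19, 15.31, 20.53 and 18.23 FPKM across knockouts 1 to 4 and 10.35, 10.04, 10.95 and 12.95 FPKM across wild types 1 to 4. Each knockout exceeded each wild type, and knockouts 3 and 4 were the highest. For Ahr these were the highest of the knockouts only, since wild type 4 (27.29 FPKM) was above knockout 4 (26.21 FPKM). Arnt rose by 0.60 ± 0.14 on the log2 scale (95% interval 0.29 to 0.91, limma adjusted p = 0.0182). Within title code 44 the difference was 0.86 (adjusted p = 0.0274) and within codes 11 and 14 it was 0.33 (adjusted p = 0.203). The call was also lost with the Xist covariate (0.62, adjusted p = 0.0629) and without knockout 3 (adjusted p = 0.0544), wild type 1 (0.0594) or wild type 2 (0.0588). The ratio of Ahr to Arnt FPKM was 1.01, 1.15, 1.37 and 1.44 across knockouts 1 to 4 and 1.92, 1.90, 1.52 and 2.11 across wild types 1 to 4, so that Ahr exceeded Arnt in every library and the ranges of the groups did not overlap. Over the 8 libraries Arnt was most like Elmod2, Timm9 and Sf3b2, with root mean square differences of 0.0559, 0.0721 and 0.0739.

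**Figure D4:**
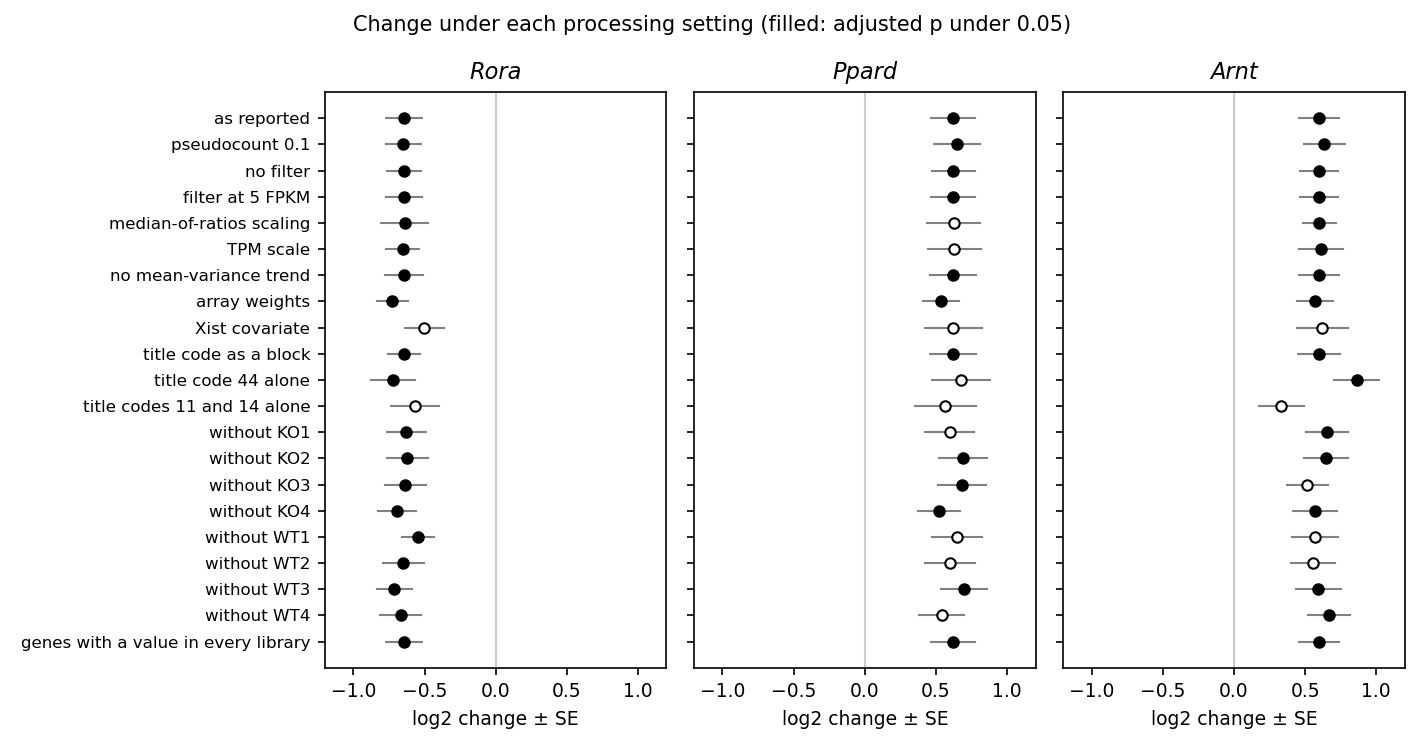
Log2 difference with its SE for Rora, Ppard and Arnt under the reported processing and 20 other settings, filled where the adjusted p was under 0.05. Each gene kept its sign in every setting. The call was lost in 2 settings for Rora, 9 for Ppard and 5 for Arnt.

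Among 18 other bHLH-PAS genes and chaperones of Ahr, 9 were tested, of which 2 rose, 3 fell and 4 did not pass. Their median log2 difference was 0.178, and 15.7% of all genes tested passed. The falls were Npas2, Clock and Epas1. Epas1, the hypoxia-inducible factor 2 alpha that also pairs with Arnt, had 21.79, 21.97, 24.55 and 33.29 FPKM across knockouts 1 to 4 against 54.63, 52.04, 57.64 and 46.77 FPKM across wild types 1 to 4. The groups were apart, with knockout 4 nearest to the wild types. The log2 difference of Epas1 was -1.04 ± 0.15 (adjusted p = 0.00152). Hif1a, the alpha subunit of the first hypoxia-inducible factor, went the other way, from 46.6 ± 5.80 to 62.95 ± 2.01 FPKM (log2 0.43 ± 0.11, adjusted p = 0.0285). Hsp90ab1, a chaperone that holds Ahr in the cytoplasm, rose from 389.7 ± 39.9 to 551.0 ± 57.4 FPKM (log2 0.50 ± 0.13, adjusted p = 0.0257). The call on Hif1a was lost without any single library except knockout 4 and wild type 4 (adjusted p 0.0543 to 0.0808), and that on Hsp90ab1 without knockout 2 or 3 or wild type 1 or 2 (0.0545 to 0.0783). Within title codes 11 and 14 the adjusted p was 0.154 for Hif1a and 0.297 for Hsp90ab1, and within code 44 it was 0.113 for Hif1a. The call on Hif1a was also lost with median-of-ratios scaling.

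Ahr targets divided. Of 14 listed, 6 were tested, 2 rose, 1 fell and 3 did not pass, where 15.7% of all genes tested passed. The median log2 difference was 0.545. Tiparp, an ADP-ribosyltransferase that represses Ahr, had 76.16, 59.01, 25.1 and 24.27 FPKM across knockouts 1 to 4 against 19.37, 16.75, 16.27 and 18.11 FPKM across wild types 1 to 4. Knockouts 1 and 2, in which Ahr itself was lowest among the knockouts, were far above the rest, and knockouts 3 and 4 stood only just above the wild types. Tiparp rose by 1.17 ± 0.34 on the log2 scale (adjusted p = 0.0468), a call lost without any single library except knockouts 3 and 4 (adjusted p 0.0817 to 0.122). Within title code 44 its difference was 0.43 (adjusted p = 0.132), and with the Xist covariate the adjusted p was 0.202. The call on Tiparp was also lost with no filter, with median-of-ratios scaling and without the mean-variance trend. It was lost in 11 of 20 other settings. Nfe2l2, the antioxidant regulator NRF2, rose from 9.75 ± 3.45 to 22.1 ± 7.31 FPKM (log2 1.10 ± 0.28, adjusted p = 0.0268), but knockout 3, at 13.48 FPKM, was below wild type 3, at 14.26 FPKM. It did not pass without knockout 1 or 2 or wild type 1 or 2 (adjusted p 0.0677 to 0.0777) or with the Xist covariate (0.151). Ugt1a7c, an enzyme that glucuronidates foreign compounds, fell from 14.2 ± 2.61 to 3.83 ± 0.661 FPKM (log2 -1.65 ± 0.17, adjusted p = 0.000188). The classical target Cyp1b1 was at most 0.330 FPKM in every library and the repressor Ahrr at most 0.0661 FPKM, both below the level needed for a test. Il24, a cytokine, was at 17.49 and 23.43 FPKM in knockouts 1 and 2 and at most 0.432 FPKM elsewhere, and was likewise not tested.

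**Figure D5:**
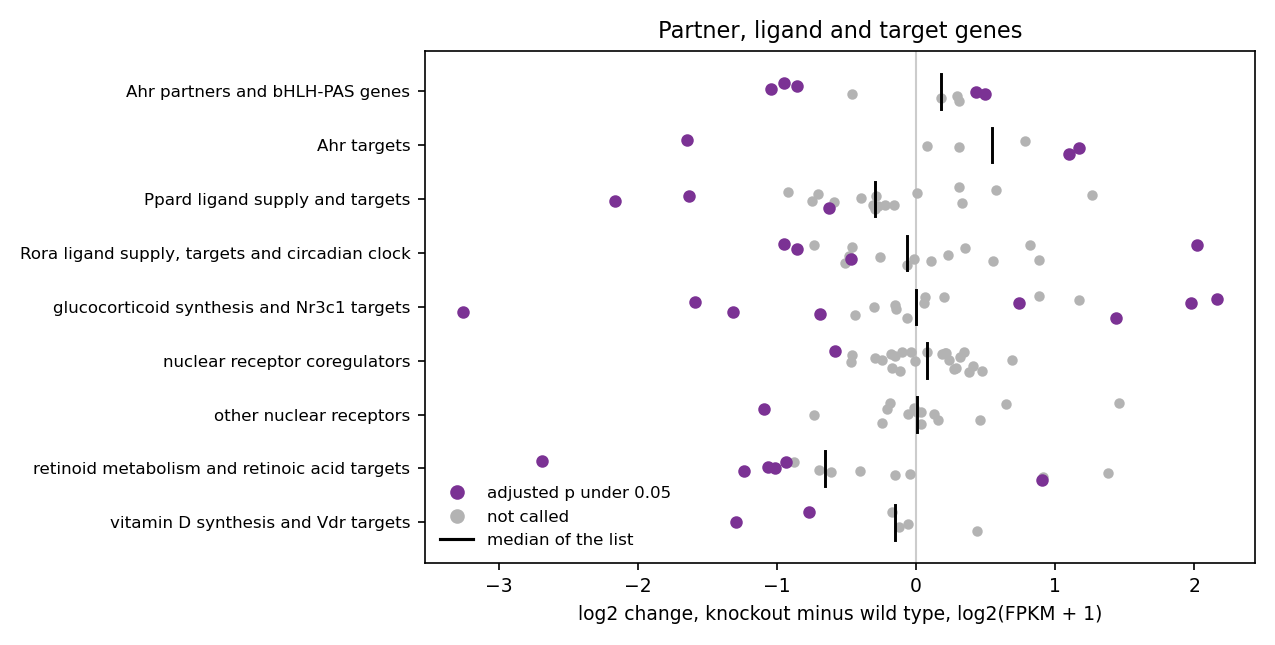
Log2 difference, knockout minus wild type, of each tested gene in the 9 lists of partners, ligand supply and targets, purple where the adjusted p was under 0.05, with the median of each list as a bar. Called genes lie on both sides in the lists for Ahr, Rora and Nr3c1, mostly on the lower side for retinoids, and 1 of 25 coregulators was called.

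Of 28 coregulators, the proteins that receptors recruit, 25 were tested and 1 passed, beside 15.7% of all genes tested. At an unadjusted limma p under 0.05, 5 were higher and 3 lower. Higher and lower calls numbered 2 and 2 with median-of-ratios scaling and 7 and 1 with array weights, and 3 were called higher within title code 44. The gene that passed, Bag1, a co-chaperone that binds nuclear receptors, fell, from 93.9 ± 8.98 to 62.4 ± 5.18 FPKM (log2 -0.58 ± 0.11, adjusted p = 0.00683; 0.136 within title codes 11 and 14). Smarca4, the motor of a chromatin remodelling complex, had 39.7 FPKM against 30.3 FPKM and did not pass (adjusted p = 0.0528). Of 42 other nuclear receptors 15 were tested, and their median log2 difference was 0.008. The immediate early receptor Nr4a1 had 157.8 FPKM against 57.3 FPKM (log2 1.46 ± 0.64, adjusted p = 0.17) and did not pass. Over the 9 lists together, 31 of 122 different genes (25.4%) passed, 10 higher and 21 lower. Over all genes tested 15.7% passed, 6.72% higher and 8.94% lower. The lists were chosen with earlier results of these data known, so the 2 shares cannot be compared as a test. Of the 31, 3 were tested only through their wild-type level. The median log2 difference over the lists was -0.062. Of these 31 calls, 21 held when each library was left out in turn, 26 with median-of-ratios scaling, 20 with the Xist covariate and 14 under every setting that gave a value.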

How the data were processed

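FPKM values, 1 per gene symbol and library, were made and deposited by the authors. The submitters' processing notes name the mm10 genome. The aligner, the quantifier, the annotation and any use of strand were not given in the sources used here; fragments of overlapping genes on opposite strands cannot be told apart. Missing values were read as 0, and Krt1, Krt10, Flg2 and Rn45s, at 0 in some libraries and at 100 FPKM or more in others, were left out. Genes at 1 FPKM or more in at least 4 of the 8 libraries (3 of 7 or 2 of 4 in smaller fits) were transformed to log2(FPKM + 1), which understates the change of low genes, and compared between genotypes alone by limma 3.58.1 (R 4.3.3), its variance prior following the mean level. The adjusted p is that of limma throughout. Without absolute depth, counting intervals cannot be given. The code was tested on simulated data. Alternatives were a pseudocount of 0.1, no filter or one at 5 FPKM, median-of-ratios or TPM scaling, no trend, array weights, log2 Xist as a covariate, the title code as a replicate block or alone, and each library left out. Only genes with a value in every library were also tried, an alternative added after the data were seen.

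Library numbers follow the order of the sample records and pair no libraries. The members and lists were chosen with earlier results of these data known. Named genes were the 9 members, Zfp750, Xist, markers, genes of a list that passed or were among its 4 smallest p, and the 3 genes most like each member that passed. Arntl, Tsc22d3, Dusp1, Sgk1, Cyp1b1, Ahrr, Il24, Cyp24a1 and Cyp27b1 were named after their values were seen, as were the ratios between members. Coordinates are from GENCODE vM21 (GRCm38). RefSeq start regions of 7 of the 9 members were searched for motifs. Some list genes are not reported here.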

Additional observations from a re-analysis of the deposited data

Results flagged for a closer look

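In 6 of 88 groups of 4 libraries, 1 library stood far from the other 3: its gap to the nearest, divided by the range, exceeded Dixon's 95% critical value for 4 values. Chance flags about 1 in 20 groups. Rxra was at 80.03 FPKM in wild type 3 and 92.72 to 94.73 FPKM in the other wild types. Nr4a1 was also apart in wild type 3, at 12.35 FPKM against 68.28 to 77.09 FPKM. In wild type 1, Gps2 was at 10.88 FPKM against 13.01 to 13.32 FPKM and Npas2 at 2.041 FPKM against 1.593 to 1.634 FPKM. Among the knockouts, Cat was at 33.35 FPKM in knockout 4 against 20.47 to 22.42 FPKM, and Cd14 at 0.9878 FPKM in knockout 2 against 0.4045 to 0.4605 FPKM.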

How the results depend on the processing

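Rora, Ppard and Arnt kept their direction under all 20 alternatives, and Rora its call in 18, Arnt in 15 and Ppard in 11. Vdr, Rarg, Nr3c1 and Ahr passed under none. Rxra (-0.33, adjusted p = 0.0266) and Rara (0.80, adjusted p = 0.0164) passed with array weights only. The difference of Nr3c1 turned to -0.23, of Rarg to -0.037 and of Ahr to -0.35 within title codes 11 and 14, beside 0.35, 0.38 and 0.46 within code 44, and that of Ahr to -0.062 with array weights. Leaving out 1 library at a time, Nr3c1 ranged from -0.051 to 0.14 and Ahr from -0.077 to 0.20. Of the 9 genes, 5 passed with array weights, 0 with the Xist covariate, 0 within codes 11 and 14, and 1 to 3 when 1 library was left out. Beside 1785 genes in all, 3669 passed with array weights, 1141 with the Xist covariate and 1123 (without wild type 1) to 2326 (without knockout 4) when 1 library was left out. Of the listed genes, 31 passed, 56 with array weights. With the title code as a replicate block 2261 genes, 45 listed genes and 3 of the 9 passed, with no call on the 9 changed; the labels do not say that the codes pair libraries. The cause of these changes was not tested. Unknown depth and 4 libraries a group limit small differences and genes under 1 FPKM.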
